A study of Schmidtea mediterranea with 100 samples.

Results

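Planarian cells sorted into the G1 gate and into the PM gate were compared by bulk RNA sequencing, with 1 library for each gate. The transcripts compared were those with at least 5 CPM (reads relative to the size of the library) in either library. There were 12953 of them among the 67386 transcripts of the count table. Of the 164 transcripts with a gene name, 115 were among the 12953 and 49 lay below the filter in both gates. At the edge of the filter, the spondin transcript H.1.3b_spondin was just inside at 5.09 CPM in PM, and sfrp-a, a secreted Wnt inhibitor gene, was just outside at 4.95 CPM in G1. The other 12838 transcripts are known by identifier alone.

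Both libraries came from dissociated whole bodies of Schmidtea mediterranea, a freshwater flatworm, of the clonal asexual strain CIW4, which were fed beef liver. Cells were stained with Hoechst, which marks DNA, and pyronin Y, which marks RNA, and were separated by FACS into 4 gates, namely G1, PM, RNA-low and S/G2/M. What PM stands for is not written in the labels, nor do they say how many animals or cells went into a library or how old the animals were. Another 96 samples, each a single cell from the RNA-low gate, were left aside.

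Neoblasts are the dividing cells of the adult planarian and the source of its differentiated tissues. In the epidermal lineage, cells that have left the neoblast state first express the prog-1 and prog-2 gene family and later acquire markers of mature epidermis such as vim-1. A sort by DNA content places cells that are not replicating together, so a gate with unreplicated DNA can hold neoblasts, their progeny and differentiated cells. In a bulk library, fewer cells of a type and less RNA per cell cannot be told apart.

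The G1 library held 54070578 reads and the PM library 47338591. Above 1 read, the smoothed distribution of read counts over transcripts peaked at 9 reads for G1 and 25 for PM, and these were used as the number of reads each starting fragment had yielded. The estimated number of fragments was therefore 6007842 in G1 and 1893544 in PM, and a level of 5 CPM stood for 33.0 and 9.43 fragments. Ribosomal RNA took 16.8% of the reads in G1 and 35.1% in PM. Calls needed a ratio of 2-fold or more together with an exact 95% interval (conditional binomial, on estimated fragments) that left out equality. These intervals cover counting error only, and no difference between the gates has a replicate check. No p-value is given for that reason.

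Named transcripts were called in both directions. The 12 higher in G1 included the helicase subunit gene mcm2 (5.12-fold), the progeny transcript prog-1h (3.26-fold), the intraflagellar transport gene IFT52 (2.76-fold), the DNA damage kinase gene ATM (2.72-fold), the replication clamp gene PCNA (2.69-fold), the mitotic cyclin gene CyclinB2 (2.46-fold) and piwi-1 (2.40-fold), the last being 1 of 4 pan-neoblast genes. PM had higher levels of the epidermal marker vim-1 (6.64-fold), the progeny transcript prog-1b (5.76-fold) and the muscle gene titin (3.97-fold), all these ratios being taken after 0.5 CPM was added. Most genes of the early epidermal progeny family, most signalling genes and most developmental transcription factors were not called. Of the 115 named transcripts, 22 (19.1%) were called, 12 higher in G1 and 10 higher in PM, against 21.6% of all 12953 transcripts, 7.23% higher in G1 and 14.4% higher in PM.

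**Figure D1:**
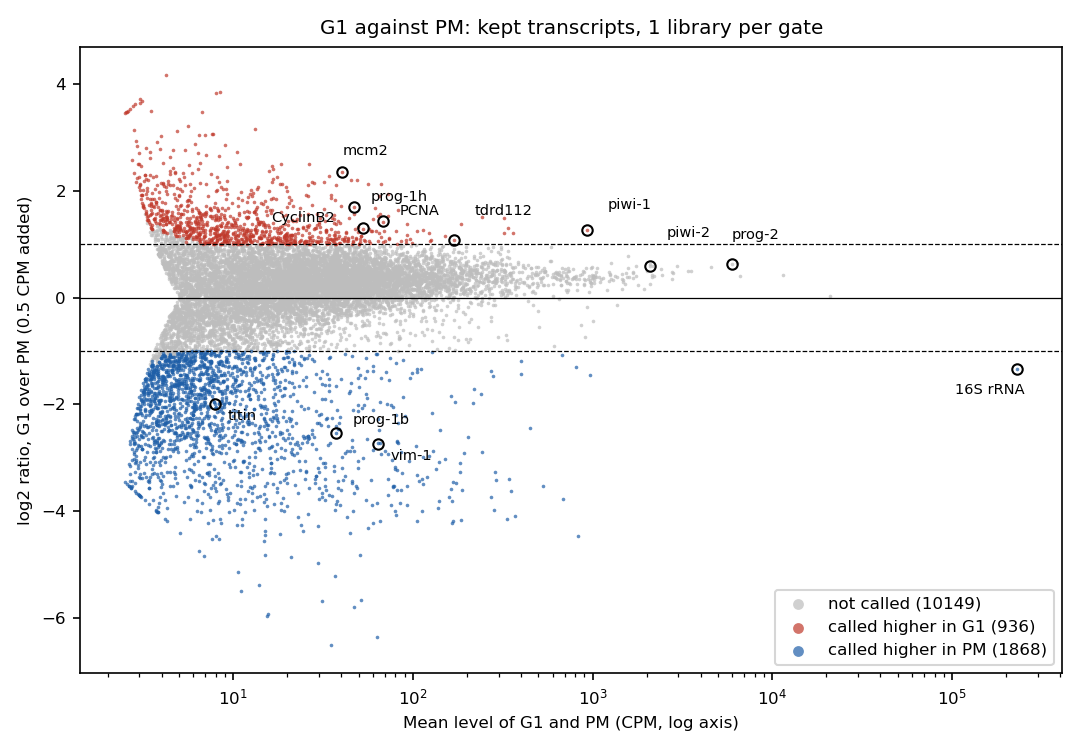
Log2 ratio of G1 over PM for each of the 12953 transcripts against the mean of the 2 levels in CPM on a log axis, with dashed lines at a 2-fold difference. With TMM scaling the median transcript lies at 0.21, calls higher in PM reach larger ratios than calls higher in G1, and 12 named transcripts are circled.

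Both genes of the replication list were called higher in G1. For mcm2, which encodes a subunit of the helicase that opens DNA at replication forks, 4054 reads were counted in G1 and 609 in PM. These stood for 68.2 CPM and 12.9 CPM, a log2 ratio of 2.36 with an interval of 1.83 to 3.08. PCNA, whose product holds the polymerase on DNA, had 5907 reads in G1 and 1725 in PM, or 99.4 and 36.6 CPM (log2 ratio 1.43, interval 1.08 to 1.82). Among the named transcripts mcm2 had the largest ratio toward G1, while PCNA stood below prog-1h, IFT52 and ATM.

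CyclinB2 drives entry into mitosis. It had 4449 reads in G1 and 1421 in PM, at 74.8 and 30.1 CPM, a 2.46-fold ratio with a log2 interval of 0.91 to 1.73. The DNA damage kinase gene ATM stood at 29.6 CPM in G1 and 10.6 in PM (log2 ratio 1.44, interval 0.82 to 2.23). Of the other kept genes of DNA damage and cell death, Ku80, which acts in the joining of broken DNA ends, was at 78.6 and 46.9 CPM and the apoptosis gene apaf1 at 81.9 and 72.2 CPM, and neither was called. The polo-like kinase gene PLK was below the filter, at 1.45 CPM in G1 and 0.679 in PM.

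Among the 4 pan-neoblast genes 1 was called. The Argonaute-family gene piwi-1 had 77846 reads in G1 and 25676 in PM, or 1309 against 544 CPM (log2 ratio 1.27, interval 1.17 to 1.36). The RNA-binding protein gene bruli was at 383 and 212 CPM (log2 ratio 0.85), piwi-3 at 1537 and 981 CPM (0.65) and piwi-2 at 2495 and 1662 CPM (0.59). Counting error was small for these 3, and the intervals of piwi-2 and piwi-3 lay wholly within 2-fold. The median log2 ratio of the 4 genes was 0.75, beside 0.21 over all transcripts. The median was higher among abundant transcripts, such as these 4. It was 0.37 where the mean of the 2 gates was 200 to 1000 CPM, and 0.41 at 1000 CPM or more.

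The genes of the chromatin and PIWI pathway list were divided. The Tudor gene tdrd112 was called higher in G1 at 228 against 108 CPM (log2 ratio 1.07), but was below 2-fold once ribosomal RNA was left out of the totals used for scaling (0.86). The chromatin remodeller gene chd4 stood at 362 CPM in G1 and 285 in PM, and its interval of 0.21 to 0.48 lay within 2-fold.

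Both gates carried the early epidermal progeny transcripts at high levels. The 18 prog-1 and prog-2 family members together took 3.26% of the reads in G1 and 2.01% in PM, with ribosomal RNA counted among the reads. Their summed level was 1.47-fold higher in G1 (log2 ratio 0.56, interval 0.54 to 0.57), short of the 2-fold needed for a call. The interval leaves out the choice of scaling. Library totals moved this log2 ratio, and those of the abundant members, by 0.14, and totals without ribosomal RNA moved them by -0.21. The summed ratio was 1.49 for the 7 prog-2 names and 1.35 for the 11 prog-1 names. Because the family holds near-identical relatives, reads may have been assigned to the wrong member, and each member's own level is uncertain.

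The abundant progeny transcripts had similar ratios. The pair prog2c and prog-2 stood at 7763 and 7217 CPM in G1 against 4969 and 4664 in PM, with log2 ratios of 0.64 and 0.63. For prog-2a the ratio was 0.60, for prog2d 0.59, for prog-1 0.48, for prog2e 0.44, for prog1a 0.38 and for prog2b 0.27. The median over all transcripts with a mean of 1000 CPM or more was 0.41. All 7 prog-2 members, together with prog-1, prog1a and prog1c, had intervals wholly within 2-fold.

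The less abundant prog-1 names spread in both directions. For prog-1h, called higher in G1, 4310 reads in G1 and 1034 in PM stood for 72.5 and 21.9 CPM (log2 ratio 1.70, interval 1.28 to 2.24). In the other direction, prog-1b had 635 reads in G1 and 3014 in PM, at 10.7 and 63.9 CPM (log2 ratio -2.53, interval -3.02 to -2.14). The calls for prog-1j (23.8 against 10.7 CPM) and prog-1i (19.8 against 9.50 CPM), both higher in G1, were lost with totals without ribosomal RNA. The member prog1g was at 49.0 and 24.6 CPM, a log2 ratio of 0.98. For prog-1e the levels were 27.8 and 18.8 CPM, for prog-1f 7.28 and 4.69, for prog-1d 8.02 and 12.9 and for prog2g 21.6 and 25.4, and none of these 4 was called. In all, 3 members were higher in G1, 1 was higher in PM and 14 were not called, with a median log2 ratio of 0.59.

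The named markers of epidermis and muscle were both called higher in PM. The epidermal gene vim-1 had 978 reads in G1 and 5285 in PM, which were 16.4 and 112 CPM (log2 ratio -2.73, interval -3.11 to -2.42). Titin, which encodes the giant elastic protein of muscle, had 171 reads in G1 and 608 in PM, at 2.88 and 12.9 CPM (log2 ratio -1.99, interval -3.09 to -1.22). Each of these lists held 1 named gene, and the titin level in PM rested on an estimated 24 fragments. Mitochondrial 16S ribosomal RNA was also higher in PM, with 131623 CPM in G1 and 330980 in PM (log2 ratio -1.33). Of the 28S ribosomal RNA transcripts, the abundant one lay near equality at 21227 and 20723 CPM (log2 ratio 0.03). The minor one was at 145 CPM in G1 and 260 in PM (-0.84, its interval leaving out equality), in the direction of 16S but short of 2-fold, and was called higher in PM with totals without ribosomal RNA. The part of the 16S difference in the other ratios was not tested beyond the scalings that leave ribosomal RNA out.

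The neuronal, intestinal and cathepsin-positive markers that were kept were not called in either direction. Of 18 neuronal names 6 were kept. The neural regulator gene COE stood at 19.8 CPM in G1 and 17.4 in PM, elav-2, which encodes an RNA-binding protein of neurons, at 27.5 and 20.6, and the zinc finger gene castor at 47.3 and 41.0. The interval of castor lay within 2-fold in both directions, as did those of COE and elav-2. The proneural gene ascl-1 was at 3.43 and 7.10 CPM, with a wide interval of -2.03 to 0.12. The 2 intestine genes, porcnA (73.8 and 70.0 CPM) and porcn-B (42.8 and 33.1 CPM), had intervals within 2-fold. NXK2.2_Dth-1, a marker of intestinal neoblasts, had 1255 reads in G1 and 618 in PM, a log2 ratio of 0.67. The cathepsin-positive list held NKX2.1_Dth-2 at 52.5 and 44.1 CPM and NKX2.1 at 6.49 and 4.41. The secretory marker mucin had 11 reads in G1 and 0 in PM, below the filter.

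**Figure D2:**
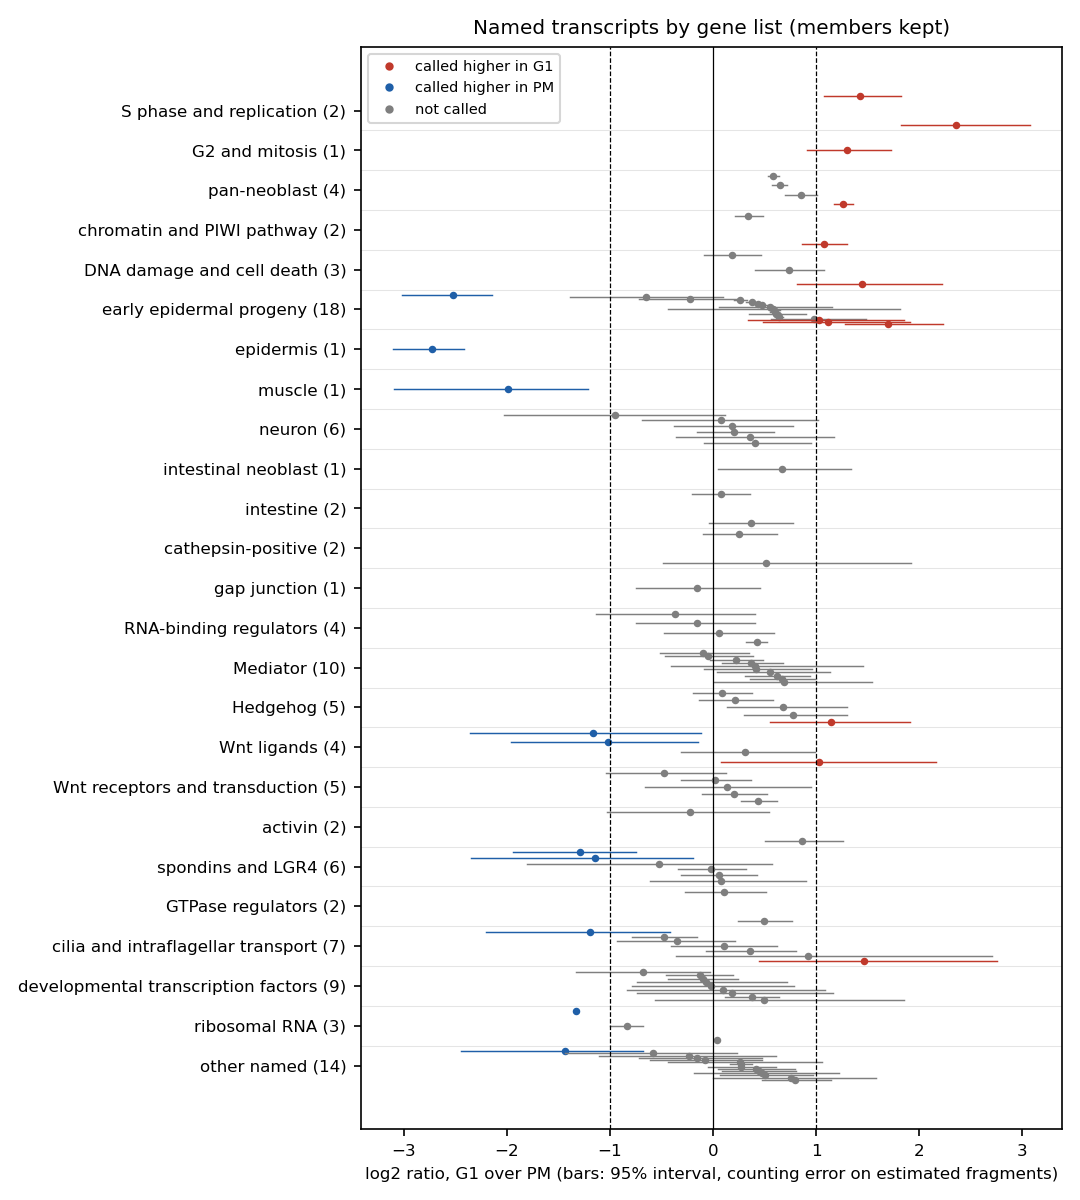
Log2 ratio of G1 over PM for the 115 named transcripts by gene list, with the number of kept members in parentheses. Points are ratios with 0.5 CPM added, bars are 95% intervals of the CPM ratio from counting error, and most points lie between the dashed 2-fold lines, with replication genes to the right and vim-1, titin and prog-1b to the left.

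Genes of signalling pathways were mostly within 2-fold. In Hedgehog signalling, in which the receptor ptc holds back smoothened until ligand binds, ptc stood at 51.0 CPM in G1 and 44.0 in PM and smoothened at 73.7 and 69.5, both with intervals within 2-fold. The kinase gene fused (37.4 and 21.6 CPM) and the inhibitor gene SuFu (26.7 and 16.5 CPM) had log2 ratios of 0.78 and 0.68. The pathway's transcription factor gene gli-1 was called higher in G1 at 26.7 against 11.8 CPM (log2 ratio 1.15, interval 0.56 to 1.91), a call that scaling by totals without ribosomal RNA removed (0.94). The ligand gene Hh was below the filter, with 9 reads in G1 and 25 in PM.

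Wnt ligand genes went both ways at low levels. Of 7 ligand names 4 were kept. Of these, wnt11-1 (2.81 CPM in G1 and 6.91 in PM, log2 ratio -1.16) and wntP-2 (4.49 and 9.58 CPM, -1.01) were called higher in PM. Both passed the filter through PM alone. In the other direction, wntP-3 was called higher in G1, at 10.9 against 5.07 CPM (1.03), and wnt11-6, at 17.1 and 13.7 CPM, was not called. The counts behind these calls were small, with an estimated 13, 18 and 10 fragments in PM, and each call was lost under at least 1 other scaling. Downstream of the ligands, the receptor gene Fzd-d (13.7 and 19.3 CPM), the transducer dvl-b (50.5 and 50.0), the beta-catenin gene Bcat-1 (243 and 179), the kinase gene nemo (65.2 and 56.5) and the secreted inhibitor gene sfrp2 (10.3 and 9.33) were not called. All 5 but Fzd-d had intervals within 2-fold.

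The activin receptor gene activin-receptor-1 was at 68.0 CPM in G1 and 37.0 in PM (log2 ratio 0.87), just short of a call, and its ligand gene activin was at 8.83 and 10.4. Spondins are secreted matrix proteins. Among 7 spondin names and 2 LGR4 receptor names, 2 spondins were called higher in PM, spondin_SmedASXL_015093 at 9.00 against 22.7 CPM (log2 ratio -1.29) and spondin_SmedASXL_019263 at 2.98 against 7.21 CPM (-1.15). The second rested on an estimated 14 fragments in PM and was lost when 2 CPM were added. The receptor genes LGR4 (11.5 and 10.9 CPM) and LGR4l (44.0 and 42.2 CPM) lay close to equality. The gap junction gene innexin-1 stood at 15.1 and 16.8 CPM. Outside the gene lists, 1 named transcript was called, CC169, higher in PM at 3.94 against 11.5 CPM (log2 ratio -1.44, interval -2.44 to -0.68).

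Cilium genes were divided. IFT52, which encodes a subunit of the intraflagellar transport particle, was higher in G1 at 12.0 against 4.01 CPM (log2 ratio 1.47, interval 0.45 to 2.76), resting on an estimated 8 fragments in PM. RPGRIP1L, which in vertebrates encodes a protein of the ciliary base, was higher in PM at 4.31 against 10.5 CPM (-1.19, interval -2.20 to -0.42), a call that was lost when 2 CPM were added. The particle genes IFT172 (15.1 and 19.4 CPM) and IFT88 (5.25 and 2.52) and the kinesin genes Kif27 (38.0 and 29.5), Kif3A (23.7 and 22.1) and Kif3B (44.9 and 62.6) were not called.

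None of the 10 Mediator genes was called. Mediator is the complex that joins transcription factors to RNA polymerase. Its members had log2 ratios from -0.10 for Med19 to 0.69 for Med27, with a median of 0.41, and 7 of the 10 intervals lay within 2-fold. Med12 was at 80.7 CPM in G1 and 52.4 in PM, and Med1 at 96.7 and 82.9. No RNA-binding regulator was called either, with mex3-1, a gene linked to the exit of planarian cells from the neoblast state, at 641 and 478 CPM, mex3-3 at 8.51 and 11.1, and the Musashi genes msi-1 at 21.4 and 20.5 and msi-2 at 16.4 and 18.3. The negative regulator of Ras gene NF1 was at 113 and 79.8 CPM and IQGAP at 40.7 and 37.8.

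Of 22 developmental transcription factor names 9 were kept and none was called. Their log2 ratios ran from -0.68 for hb-2 (10.1 and 16.5 CPM) to 0.49 for DLL-2 (6.21 and 4.26 CPM), with a median of -0.02. PAX5-1 at 50.7 and 55.4 CPM, hnf6 at 47.0 and 50.2, klf at 11.3 and 11.9 and soxB at 9.89 and 10.1 stood near equality. The factor gene usf was at 103 and 79.4 CPM, FoxJ1-3 at 7.65 and 6.66 and meis at 7.28 and 6.79.

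The named transcripts called apart were followed into the other 2 gates, whose counts entered the calls through the TMM factors alone. Of the 12 higher in G1, 9 were at their highest in S/G2/M and 3 (prog-1h, gli-1 and IFT52) in G1. A separate comparison of S/G2/M with RNA-low by the same rule, which called 40.6% of its 12040 transcripts, 18.1% higher in S/G2/M and 22.5% higher in RNA-low, called 9 of the 12 higher in S/G2/M and left gli-1, IFT52 and wntP-3 uncalled. For example, the level of mcm2 was 201 CPM in S/G2/M against 9.12 CPM in RNA-low, that of PCNA 446 against 40.7, that of ATM 52.1 against 16.4 and that of tdrd112 536 against 185. Of the 10 higher in PM, 9 were at their highest in PM, and wntP-2 was at its highest in RNA-low (10.8 CPM). Between S/G2/M and RNA-low, 2 of these 10 (vim-1 and prog-1b) were called higher in S/G2/M. Another 2 (wntP-2 and spondin_SmedASXL_015093) were called higher in RNA-low, the 16S ribosomal RNA was not called, and 5 were below the filter. Among all called transcripts, 54.8% of those higher in G1 were highest in S/G2/M, and 95.9% of those higher in PM were highest in PM. A call partly fixes the highest gate, so nothing is read from these counts of highest gates. Titin was at 4.61 CPM in RNA-low and 0.515 CPM in S/G2/M, vim-1 at 2.02 and 10.7, and prog-1b at 0.606 and 12.8.

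**Figure D3:**
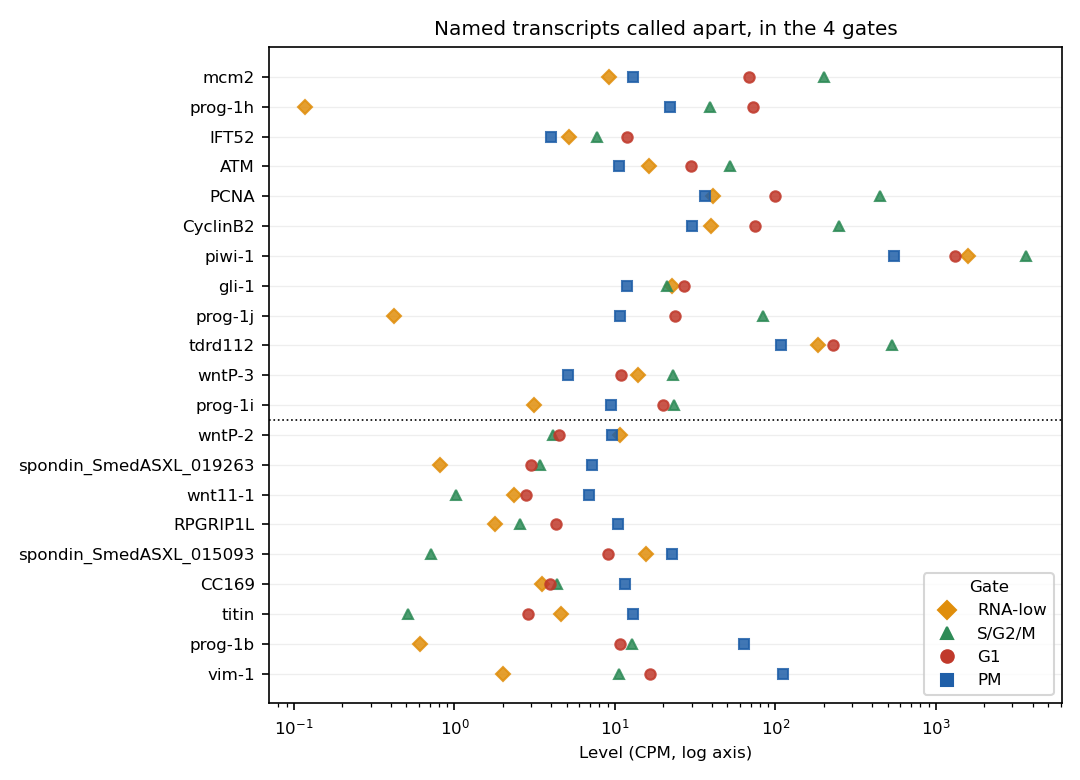
Levels in CPM on a log axis of 21 named transcripts called apart in G1 against PM, in the 4 gates, ordered by log2 ratio. The 16S ribosomal RNA is left out for scale. Above the dotted line are the 12 called higher in G1, where the S/G2/M marker is the rightmost in 9, and below it those called higher in PM.

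The same was described for all called transcripts, named or not. Of the 936 higher in G1, 864 were measured in S/G2/M against RNA-low, of which 389 (45.0%) had a call toward S/G2/M and 158 (18.3%) toward RNA-low. For the uncalled transcripts the shares were 12.7% and 21.2%. The level of transcripts higher in G1 was greatest in S/G2/M for 513 transcripts (54.8%), while G1 was the highest gate for 268 and RNA-low for 155. Of all 12953, 32.7% were highest in S/G2/M and 24.5% in PM. A transcript called higher in G1 cannot be highest in PM, so nothing is read from the difference between 54.8% and 32.7%. The median level of the 936 was 13.6 CPM in G1 against 5.04 CPM in PM, with 20.6 CPM for S/G2/M and 9.73 CPM for RNA-low.

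Of the 1868 transcripts higher in PM, PM was the highest of the 4 gates for 1792 (95.9%), against 24.5% of all 12953. Below 5 CPM in both RNA-low and S/G2/M were 1238 (66.3%), against 15.1% of all. All of them passed the filter through PM and were chosen to be lower in G1, which partly fixes low levels elsewhere, so nothing is read from these shares. Their median level was 11.0 CPM in PM and 2.48 CPM in G1, with 1.92 CPM for RNA-low and 1.90 CPM for S/G2/M. Of the 630 that were measured in S/G2/M against RNA-low, 215 (34.1%) had a call toward S/G2/M and 176 (27.9%) toward RNA-low. Among the uncalled transcripts these shares were 12.7% and 21.2%, both below those of the 630. With transcripts below the filter counted, 11.5% of the 1868 had a call toward S/G2/M, against 11.9% of the uncalled. The 630 are the part of the 1868 that reached 5 CPM in RNA-low or S/G2/M, so nothing is read from their larger shares. The choice of G1 and PM calls fixes that PM is not the highest gate in the first set and G1 not in the second, and nothing is read from those zeros.

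**Figure D4:**
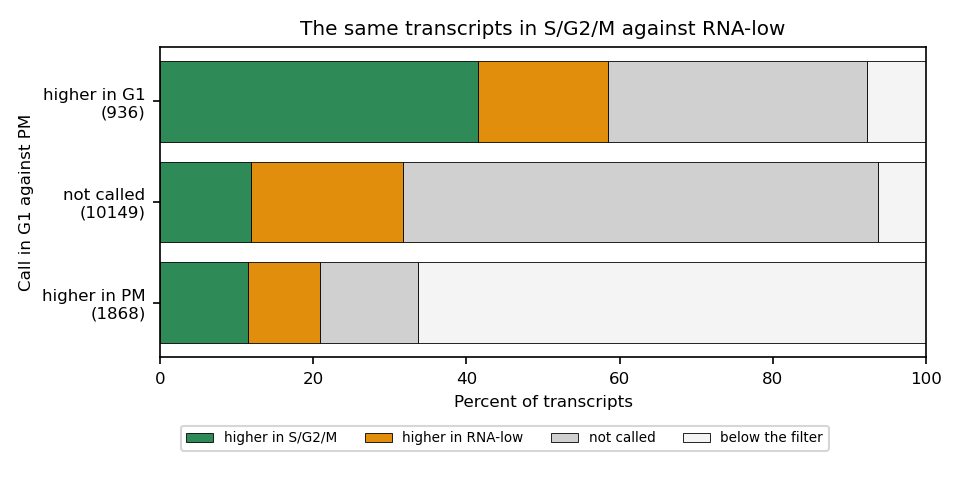
Share of transcripts, in percent, by their call in S/G2/M against RNA-low, for the 936 called higher in G1, the 10149 not called and the 1868 called higher in PM. Calls higher in S/G2/M make up 41.6% of the first bar, 11.9% of the middle one and 11.5% of the last. Transcripts below the filter make up 7.69% of the first bar and 66.3% of the last. Among measured transcripts alone, the S/G2/M shares are 45.0% for the first bar and 34.1% for the last.

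Large differences were mostly in one direction. At 4-fold or more, 133 transcripts were higher in G1 and 971 in PM, and at 16-fold or more 1 and 62. These counts were taken with TMM over the 4 libraries alone. Of the 909 with a 4- to 16-fold excess in PM, 189 reached 5 CPM in G1, and of the 133, 20 did so in PM. PM was also the shallower library, where 5 CPM stood for 9.43 fragments against 33.0 in G1. The part of depth in the imbalance was not tested. The 62 had a median level of 30.9 CPM in PM and 0.883 CPM in G1, with 1.89 CPM for S/G2/M and 0.505 CPM for RNA-low, and none carried a gene name. Of the 133 with at least 4-fold excess in G1, mcm2 was the one with a name, and 81 were at their highest in S/G2/M. No reads were counted in G1 for 29 transcripts called higher in PM. The PM levels of these 29 were 11.0-fold to 67.5-fold a floor of 3 fragments in the G1 library (0.454 CPM). For 9 transcripts called higher in G1 there were no reads in PM, and their G1 levels were 3.15-fold to 5.33-fold the PM floor of 1.59 CPM. These ratios to a floor leave out counting error in the higher gate and are not lower bounds.

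The transcripts known by identifier alone that are given here had the largest ratios in each direction among those that reached 50 CPM in the higher gate. Toward PM, SmedASXL_009671 had 16 reads in G1 and 3273 in PM, at 0.269 and 69.4 CPM (log2 ratio -6.51, interval -10.90 to -5.96). SmedASXL_017086 had 62 and 5914 reads, at 1.04 and 125 CPM (-6.35, interval -8.22 to -5.82), and both were below 5 CPM in RNA-low and S/G2/M. On the G1 side, where the ratios of both identifiers were below that of mcm2 (2.36), SmedASXL_003658 was at 57.1 CPM against 11.3 in PM (2.29, interval 1.72 to 3.07) with 0.522 CPM for RNA-low and 26.0 CPM for S/G2/M. SmedASXL_012910 was at 75.1 against 15.8 CPM (2.21, interval 1.71 to 2.82) and reached 212 CPM in S/G2/M. The count table pairs none of these 4 with a gene name.

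Calls were concentrated among transcripts of low level. With a mean of the 2 gates from 5 to 10 CPM, 10.5% were called higher in G1 and 21.4% in PM. From 50 to 100 CPM the shares were 2.86% and 4.97%, and from 200 to 1000 CPM 1.43% and 5.70%. Of 67 transcripts at 1000 CPM or more, 1 was called, the 16S ribosomal RNA. Transcripts with a mean below 5 CPM were kept through 1 library alone and had to differ, and with them left out 738 were higher in G1 and 1255 in PM.

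**Figure D5:**
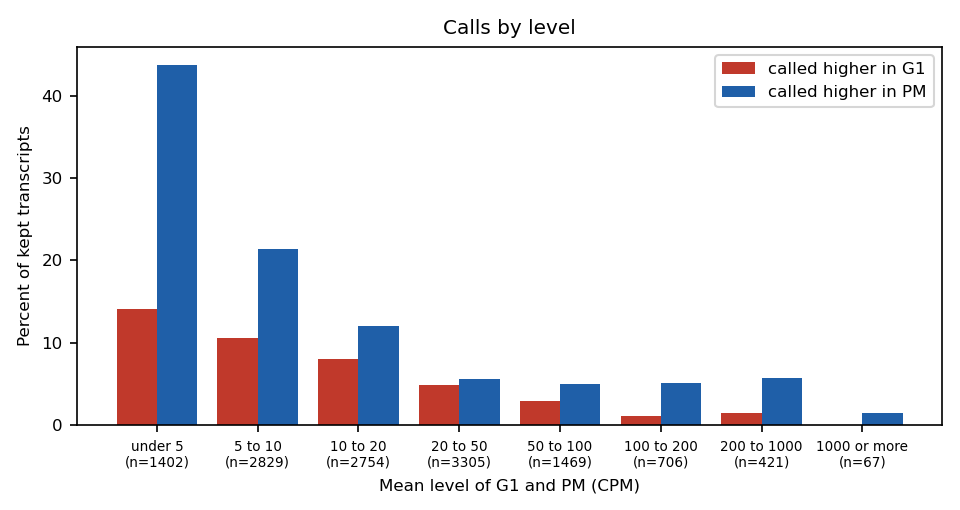
Percent of kept transcripts called higher in G1 or in PM, by the mean level of the 2 gates in CPM, with the number of transcripts in each range under the axis. The shares are 10.5% and 21.4% at 5 to 10 CPM and 1.43% and 5.70% at 200 to 1000 CPM. The share called higher in PM is 5.60% at 20 to 50 CPM and changes little from there to 1000 CPM. Transcripts under 5 CPM were kept through 1 library alone.

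Most transcripts did not differ by 2-fold, and for many this was measured with some precision. For 5512 of the 12953 (42.6%), among them 61 of the 115 named, the whole interval lay within 2-fold in both directions. The 5th percentile of the log2 ratio was -2.48 and the 95th 1.21. Leaving out ribosomal RNA, transcripts higher in G1 made up 3.37% of the reads in G1 and 1.51% in PM, and those higher in PM made up 9.57% of the reads in PM and 1.56% in G1.

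The balance of the calls depended on the scaling. Library totals shifted the median log2 ratio by 0.15, and 1401 transcripts were higher in G1 and 1697 in PM, so that the G1 share of calls went from 33.4% to 45.2%. When ribosomal RNA was left out of the totals, the shift was -0.24 and the calls numbered 535 and 2385, a G1 share of 18.3%. Of the 22 named calls, 13 were kept under all 4 other scalings and with 0.1 or 2 CPM added, namely piwi-1, mcm2, PCNA, CyclinB2, ATM, IFT52 and prog-1h in G1 and vim-1, titin, prog-1b, CC169, spondin_SmedASXL_015093 and the 16S ribosomal RNA in PM. Over those scalings the log2 ratio of piwi-1 ran from 1.05 to 1.41, that of mcm2 from 2.15 to 2.50 and that of vim-1 from -2.95 to -2.59. Some named calls passed the filter only through the gate where they were higher. These were titin, CC169, RPGRIP1L, wnt11-1, wntP-2 and spondin_SmedASXL_019263 through PM, and IFT52 through G1.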

How the data were processed

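The deposited bulk table holds whole-number read counts per transcript for 4 gates, not normalized by the authors as far as the values show. TruSeq libraries were made from Trizol-extracted RNA, per the labels' protocols, and, per the submitters' processing notes, bcl2fastq 1.8.3 and Bowtie2 were used. Counting tool, filters, strand setting, reference: not given in the sources used here. The column headed G0 was taken as RNA-low, since G0 also starts the column names of the single cells from that gate. The single-cell table was not used.

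Counts were scaled by TMM over the 4 libraries (edgeR 4.0.16, R 4.3.3) to CPM, and 0.5 CPM was added before the log2 ratio. Levels are shares of a library, not amounts per cell, and are not divided by transcript length. Fragments were estimated by dividing reads by the peak of the read count distribution, which is a rough correction for repeated reads. Intervals (scipy 1.17.1) are of the CPM ratio without the added 0.5 and cover counting error only. With 1 library per gate no test was possible. The calling was run on simulated data drawn from the counting model that the intervals assume, with the reads per fragment taken as known. The simulation had no spread between replicate libraries and cannot speak to it. Alternatives were DESeq2 1.42.0 median-of-ratios factors, other totals, filters, added values and call rules. The members, gene lists and comparisons were chosen with earlier results of these data known, and list members were matched by the names in the table. The text could name any kept list member, other named genes that were called, the named transcript nearest the filter on each side, and the 2 identifiers with the largest ratio each way at 50 CPM or more. List members below the filter (PLK, Hh and mucin) were named after their values were seen. No sequence, genome or annotation was used.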

Additional observations from a re-analysis of the deposited data

How the results depend on the processing

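The numbers called (936 higher in G1 and 1868 in PM) stayed within 1.5 times under median-of-ratios factors, TMM from the 2 libraries alone, library totals, 0.1 or 2 CPM added, intervals on reads, the 2-fold rule alone and, chosen after seeing the data, a filter on the mean level. Totals without ribosomal RNA gave 535 in G1. A filter of 1 CPM, and no filter, gave 3540 in PM. A filter of 20 CPM gave 336 and 535, one of 50 CPM gave 108 and 223, and a 4-fold rule gave 133 and 971, each with fewer transcripts able to pass. The share of G1 calls that were higher in S/G2/M than in RNA-low (45.0%) was 50.7% with median-of-ratios factors, 32.7% with library totals and 52.2% with totals without ribosomal RNA. For PM calls (34.1%) it was 39.8%, 28.6% and 23.9%. The cause of these changes was not tested. No named call changed direction. Lost calls were prog-1i and wntP-3 with TMM from 2 libraries, wnt11-1 and wntP-2 with library totals, gli-1, prog-1i, prog-1j, tdrd112 and wntP-3 with totals without ribosomal RNA, and prog-1i, RPGRIP1L, wnt11-1, wntP-2, wntP-3 and spondin_SmedASXL_019263 with 2 CPM added. Gained were activin-receptor-1 and prog1g with library totals, and ascl-1 and the minor 28S transcript with totals without ribosomal RNA. PM was the shallower library, at 1893544 estimated fragments, where 1 fragment is 0.53 CPM. No paired analysis was possible because each gate has 1 library.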

Other observations

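The most abundant transcripts were largely shared. Of the 100 most abundant in each gate outside ribosomal RNA, 88 were common to both. In the 112 transcripts of either set, piwi-1 was the one called higher in G1, and 7 were called higher in PM, all known by identifier alone. These 7 stood at 758 to 1582 CPM in PM, with log2 ratios from -4.46 to -1.07, and each was at its highest in PM of the 4 gates. The intervals of 103 of the 112 lay within 2-fold, and their median log2 ratio was 0.39. The 10 most abundant took 7.84% of the reads outside ribosomal RNA in G1 and 6.39% in PM. The 11 named ones were 8 prog-1 and prog-2 family members and the 3 piwi genes.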
